A study of Homo sapiens with 12 samples.

Results

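Senescence-associated cytokines and chemokines were examined as 10 named genes: CXCL1, CXCL2, CXCL3, CXCL8, IL1A, IL1B, IL6, LIF, CCL2 and IL24. The members were chosen by name, as the rows of the count matrix with these gene symbols, and 10 of the 58307 rows that name a gene were members. All 10 had a single row, and all 10 passed the filter on low counts in each comparison. By the labels, the RNA came from A375 and SK-MEL-28, lines long established from human malignant melanoma. Both were given etoposide, which traps topoisomerase II on broken DNA, or etoposide + rapamycin, rapamycin being an inhibitor of the kinase mTOR. Each of the 4 groups had 3 polyA-enriched libraries, and every group had received etoposide, so no value below compares treated with untreated cells. Doses and times for these libraries are not given in the sources used here. The study's methods call the 3 libraries of a group biological replicates.

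Library totals ranged from 28189501 to 32499337 counts. Levels are given as CPM, counts per 1000000 of the normalised library total. The marker genes of the lines were checked first. SOX10, a transcription factor of the neural crest and melanocyte lineage, was at 166 to 579 CPM over the 12 libraries, and S100B was at 56.8 to 106 CPM. SK-MEL-28 is known as a line that expresses pigment cell genes, but in the libraries labelled SK-MEL-28 TYR (tyrosinase) was at 0 to 0.0654 CPM, MLANA at 0.358 to 1.37 CPM and PMEL at 1.67 to 2.99 CPM, close to the 0 to 0.197, 0.470 to 1.05 and 1.54 to 2.27 CPM in A375. Of 7 melanocyte markers tested with etoposide, 2 were called higher in SK-MEL-28 and 0 lower, against 5.39% and 7.16% of all genes tested. The 2 were TYRP1, at 1.21 to 1.82 CPM against 0.369 to 0.756 CPM over the 6 libraries of each line, and DCT, at 1.28 to 2.16 against 0.202 to 0.825 CPM. MITF, the lineage regulator, was at 18.0 to 29.7 CPM in SK-MEL-28 and 12.1 to 20.9 CPM in A375 (log2 0.56, not called), and the median difference of the 7 was 0.34. No gene had a mean of at least 5 CPM in one line and under 0.1 CPM in the other, and 25 of 12126 expressed genes (0.206%) were over 10-fold apart. The names of the lines below are those of the labels, and whether the libraries came from those lines was not tested. The defining leukocyte markers PTPRC, CD14 and CD3E were at no more than 0.632, 0.202 and 0.213 CPM in any library. The 8 leukocyte markers summed to 40.8 to 61.4 CPM over all libraries, nearly all of it CD68 and LYZ, and the summed ranges overlapped between the groups of a line. LYZ was called lower with rapamycin in both lines (log2 fold change −1.32 and −0.85) and CD68 was called higher in SK-MEL-28 (0.64). The 6 fibroblast markers summed to 29.5 to 34.3 CPM in A375 with etoposide and 25.2 to 29.1 with rapamycin added, and to 46.6 to 52.7 and 40.8 to 42.6 CPM in SK-MEL-28, with LUM called lower in both lines and DCN (log2 −0.63) in A375. The 3 endothelial markers summed to 6.70 to 9.37 CPM in A375 with etoposide and 5.84 to 6.60 with rapamycin added, and to 4.70 to 5.98 and 3.49 to 3.97 CPM in SK-MEL-28, where PECAM1 (−0.70) was called lower. The 4 epithelial markers, mostly KRT18, summed to 121 to 142 and 144 to 164 CPM in A375 and to 195 to 201 and 198.3 to 203 CPM in SK-MEL-28, with 0 called in either line by edgeR or DESeq2 (at an unadjusted p under 0.05, 1 marker was higher in A375, while in SK-MEL-28 1 was lower). The share of all genes at that unadjusted p is not given here. The part of these genes in the results was not tested.

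Cells that stop dividing after DNA damage can secrete a mixture of inflammatory proteins, the senescence-associated secretory phenotype. In that setting IL-1α, the product of IL1A, acts through its receptor on NF-κB and C/EBPβ, which drive transcription of CXCL8, IL6 and related genes, and mTOR is known to act on this output through translation, including that of IL1A and of the kinase MAPKAPK2. CXCL1, CXCL2, CXCL3 and CXCL8 bind CXCR2 and draw neutrophils, CCL2 draws monocytes through CCR2, IL6 and LIF signal through the shared receptor subunit gp130 (IL6ST), and IL24 belongs to the IL-10 family. CXCL1 was first described as a growth factor of melanoma cells, and IL24 was first isolated from melanoma cells induced to differentiate.

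The 250 bases before the transcription start of the CXCR2 ligands are shown because these genes share a motif and differed in level and response. They are from RefSeq (GRCh38.p14) and are written 5′ to 3′ on the strand of the gene, at chr4:73869143-73869392 (+) for CXCL1, chr4:74099196-74099445 (−) for CXCL2, chr4:74038690-74038939 (−) for CXCL3 and chr4:73740319-73740568 (+) for CXCL8. Capitals mark NF-κB-type letters in all of them, TTACGCAA (C/EBP-type) in CXCL2, and TGACTCA (AP-1-type) and TATAAA in CXCL8.
CXCL1: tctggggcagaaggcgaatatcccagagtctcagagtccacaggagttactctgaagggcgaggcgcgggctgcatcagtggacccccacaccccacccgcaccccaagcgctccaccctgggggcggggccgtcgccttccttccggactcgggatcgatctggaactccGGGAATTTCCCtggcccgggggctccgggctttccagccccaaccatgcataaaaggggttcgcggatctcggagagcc
CXCL2: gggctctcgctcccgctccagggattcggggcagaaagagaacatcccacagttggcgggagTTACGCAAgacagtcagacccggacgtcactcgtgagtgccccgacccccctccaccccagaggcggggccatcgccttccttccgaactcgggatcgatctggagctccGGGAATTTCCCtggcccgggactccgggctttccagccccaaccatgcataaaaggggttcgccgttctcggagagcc
CXCL3: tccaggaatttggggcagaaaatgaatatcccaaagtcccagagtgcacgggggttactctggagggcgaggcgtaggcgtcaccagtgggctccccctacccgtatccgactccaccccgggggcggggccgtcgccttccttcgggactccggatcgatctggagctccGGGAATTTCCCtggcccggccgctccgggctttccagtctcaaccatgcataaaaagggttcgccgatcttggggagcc
CXCL8: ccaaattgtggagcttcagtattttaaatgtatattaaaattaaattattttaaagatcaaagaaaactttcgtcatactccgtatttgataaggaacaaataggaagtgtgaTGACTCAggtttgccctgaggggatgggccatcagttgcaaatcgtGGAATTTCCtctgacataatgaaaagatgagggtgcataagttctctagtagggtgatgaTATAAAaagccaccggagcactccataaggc
The motif GGAATTTCC, searched on both strands, was in the windows of 4 of the 8 members matched in the promoter table used here (LIF and CCL2 were not matched), these being the CXCR2 ligands, and in 0.413% of all 35116 windows. A looser motif, GGG, any 3 bases and then TTCC, also on both strands, was in 4 of the 8 members and 5.67% of all windows. In CXCL1, CXCL2 and CXCL3 both motifs lay on the same letters, GGGAATTTCCC. The windows of these 3 similar genes are much alike around those letters, so their matches are not separate observations. The fourth match to the looser motif was GGGATTTTCC in IL6, 73 bases before its start. TATAAA on the gene's strand was in 2 of the 8 members and 6.80% of windows, TGANTCA on both strands in 2 and 6.57%, and TTGCNNAA on both strands in 3 and 9.05%. None of these motifs was in the IL24 window. A match describes the letters only and was not tested as a binding site.

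**Figure D1:**
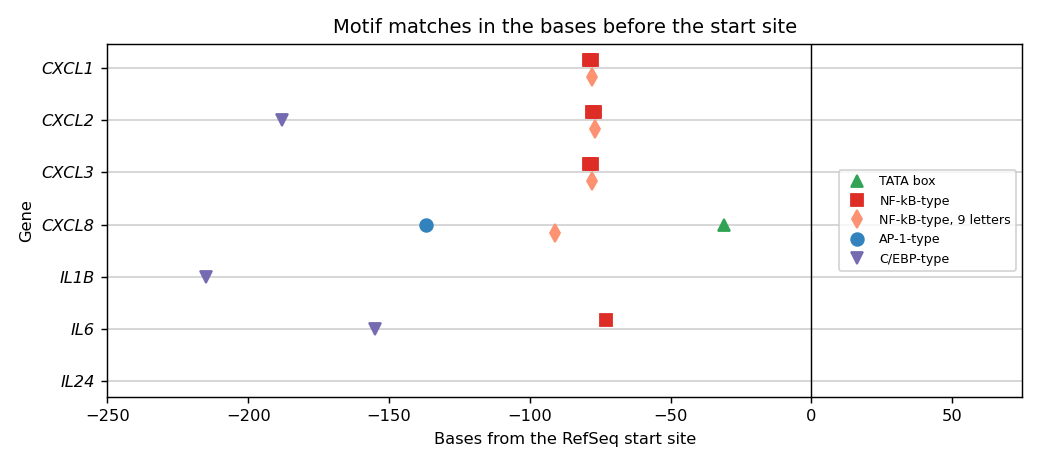
Positions of motif matches in the 250 bases before the RefSeq transcription start of 7 members. The x axis is the distance from the start in bases and each row is a gene; colours mark the motif. The NF-κB-type matches of CXCL1, CXCL2 and CXCL3 line up 77 to 79 bases before the start, and that of CXCL8 lies 91 bases before it. IL1A, which has 2 RefSeq starts, LIF and CCL2 are not drawn.

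The 3′ untranslated regions of these transcripts hold AU-rich letters, the class of element that proteins such as TTP (ZFP36) bind to shorten the life of an mRNA. The motif TTATTTATT was in 6 of the 10 members and in 8.60% of 18780 transcripts with such a region (GENCODE release 44, MANE Select, GRCh38). CXCL2 had 5 matches, CXCL1 had 3, IL1B and LIF had 2 each, CXCL3 and CXCL8 had 1 each, and IL1A, IL6, CCL2 and IL24 had 0. Some of these matches overlap each other. At least 3 copies of ATTTA were in 9 members and in 42.4% of transcripts, although the median region was shorter in the members, at 744 bases, than over all transcripts, at 1089 bases. One match of each of the 6 is shown in its 29-base surroundings, with the motif in capitals, since the near-identical surroundings in CXCL1, CXCL2 and CXCL3 also show how alike these transcripts are.
CXCL1: atgtcagttgTTATTTATTgaaatgattt
CXCL2: atgtcagttgTTATTTATTgaaatgattt
CXCL3: atgtcagttgTTATTTATTcaaattatct
CXCL8: atgtaaagtaTTATTTATTtgaatctaca
IL1B: gcttccctatTTATTTATTtatttgtttg
LIF: ctccgggcccTTATTTATTatttaaacat
Of the 50-base words in the transcript, 10.1% in CXCL2, 5.33% in CXCL1 and 5.26% in CXCL3 also occur in another member, and 0% in the other members. How the counting divided reads between these similar transcripts is not stated, so their separate values carry that uncertainty.

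Per kilobase of transcript, IL24 and CXCL8 were the most abundant members in all 4 groups, and IL6 was the least abundant in A375 and CXCL2 or CXCL3 in SK-MEL-28. IL24 was at 350 ± 11.5 CPM per kb (SD, n = 3) in A375 with etoposide and CXCL8 at 309 ± 20.2 CPM per kb. With rapamycin added, CXCL8 was at 460 ± 17.3 and IL24 at 439 ± 17.3 CPM per kb in A375, a gap smaller than the sum of their SDs. In SK-MEL-28, IL24 stood alone at 314 ± 3.53 CPM per kb with etoposide and 549 ± 22.2 CPM per kb with rapamycin added, and CXCL8 followed at 69.2 ± 4.01 and 84.4 ± 11.0 CPM per kb. Among 14072 genes ranked by level per kb, with etoposide alone, IL24 was in place 145 in A375 and in place 161 in SK-MEL-28, and CXCL8 in places 158 and 942. IL6 was in places 11447 and 9174. Neighbours in the order whose means differed by no more than the sum of their SDs were, besides that pair, CCL2 and LIF in both A375 groups and in the SK-MEL-28 etoposide group, CXCL2, CXCL3 and IL1B in both A375 groups, CXCL2 and CXCL3 in the SK-MEL-28 etoposide group, and CXCL3 and IL6 in SK-MEL-28 with rapamycin added.

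**Figure D2:**
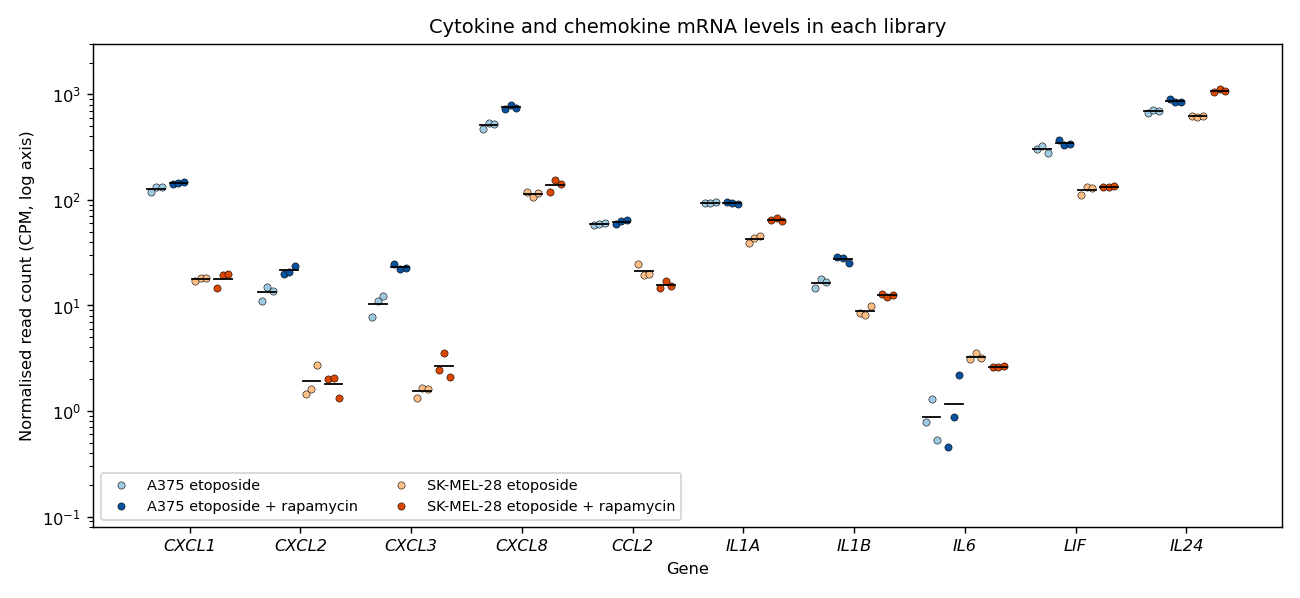
CPM of each of the 10 members in the 12 libraries, on a log axis. Each point is 1 library, colours mark the 4 groups and bars mark the group means. IL24 lies above 600 CPM in every library, IL6 below 4 CPM in every library, and the 4 CXCL chemokines lie lower in SK-MEL-28 than they do in A375.

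With rapamycin added to etoposide, CXCL2, CXCL3 and IL1B were higher in A375 and CXCL3, IL1A and IL24 in SK-MEL-28, where a call needs an adjusted p under 0.05 and a change of over 1.5-fold. In A375, 3 of 10 members were called, all higher, against 5.89% of the 18844 genes tested (3.09% called higher and 2.8% lower). In SK-MEL-28, 3 of 10 were called, all higher, against 4.99% of 18897 genes (1.85% called higher and 3.14% lower). By the adjusted p alone, 7 members passed in A375, all higher, against 28.1% of genes (14.3% higher). In SK-MEL-28, 6 passed, 5 higher and CCL2 lower, against 19.0% of genes (8.83% higher and 10.1% lower). The groups did not overlap for 7 members in A375, all higher with rapamycin, against 42.6% of genes (20.7% higher), and for 8 members in SK-MEL-28, 6 higher and 2 lower, against 35.9% of genes (17.7% higher and 18.2% lower). The members had a median log2 fold change of 0.38 in A375 against 0.19 in SK-MEL-28, and that of all genes tested was −0.0051 and 0.0053. No member was called lower in either line by edgeR or DESeq2. At an unadjusted p under 0.05, 0 members were lower in A375 and 1, CCL2, was lower in SK-MEL-28. P-values come from the quasi-likelihood test of edgeR, adjusted over all genes by Benjamini-Hochberg, and a log2 fold change is positive where the level was higher with rapamycin. From bulk RNA, a change in the number of cells that make a transcript and a change in the amount per cell cannot be told apart.

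**Figure D3:**
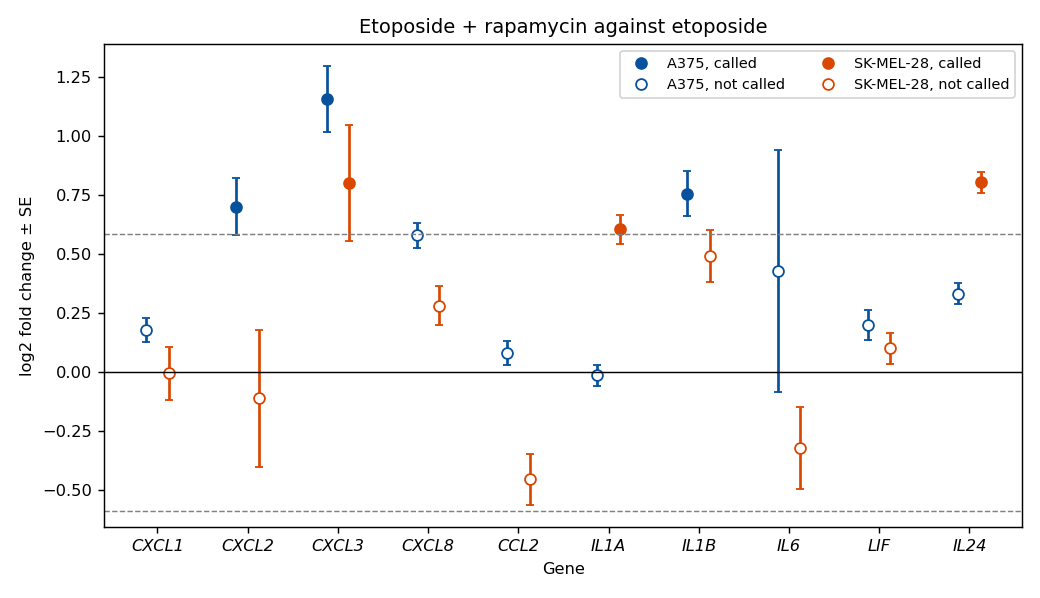
Log2 fold change of each member, etoposide + rapamycin against etoposide, in A375 and SK-MEL-28. Points are edgeR estimates, bars are 1 SE, filled points are called and dotted lines mark a 1.5-fold change. CXCL2, CXCL3 and IL1B are called in A375 and CXCL3, IL1A and IL24 in SK-MEL-28.

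CXCL3 (chr4:74036589-74038807, minus strand, with gene positions here and below from GENCODE release 44 on GRCh38, whose starts can differ from those of RefSeq), a CXCR2 ligand, was the member with the largest fold change in A375 and was called in both lines. Its A375 libraries were at 7.80, 11.1 and 12.4 CPM with etoposide and at 24.8, 21.9 and 22.7 CPM with etoposide + rapamycin. Those of SK-MEL-28 were at 1.34, 1.65 and 1.61 CPM and then at 2.42, 3.54 and 2.11 CPM. Every library with rapamycin was above every library without it in both lines. The log2 fold change was 1.16 in A375 (SE 0.140, edgeR adjusted p = 8.68e-05) and 0.80 in SK-MEL-28 (SE 0.246, edgeR adjusted p = 0.0381). The SK-MEL-28 value rested on 41 to 99 counts per library, and its call depended on single libraries. Leaving out any of 5 of the 6 libraries lost it: etoposide + rapamycin replicate 1 (adjusted p = 0.0524) or 2 (0.161, with a log2 fold change of 0.56), or etoposide replicate 1 (0.114), 2 (0.0683) or 3 (0.0787). The adjusted p ranged from 0.0149 to 0.161 over all alternatives.

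CXCL2 (chr4:74097040-74099196, minus strand), a close relative, was called in A375 alone. In A375 it was at 10.9, 15.0 and 13.8 CPM with etoposide and at 20.1, 20.5 and 23.8 CPM with rapamycin added, and the groups did not overlap. The log2 fold change was 0.70 (SE 0.121, edgeR adjusted p = 0.00101). Without etoposide replicate 1 it was 0.58, just under 1.5-fold, with the adjusted p at 0.00223 in a range of 2.56e-06 to 0.00736 over alternatives. In SK-MEL-28 the CXCL2 counts were low, 41 to 89 per library. Its levels there were 1.44, 1.62 and 2.70 CPM with etoposide and 2.00, 2.04 and 1.33 CPM with rapamycin added, and the groups overlapped. This gave a log2 fold change of −0.11 (SE 0.288, edgeR adjusted p = 0.836). The difference of response between the lines was −0.81 on the log2 scale (SE 0.288) and did not pass the test (edgeR adjusted p = 0.116).

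CXCL8 (chr4:73740519-73743716, plus strand), interleukin-8, was the most abundant chemokine per kilobase. The A375 libraries held it at 470, 534 and 519 CPM with etoposide and at 734, 788 and 745 CPM with rapamycin added, with no overlap. Those of SK-MEL-28 held it at 118, 106 and 117 CPM and then at 120, 156 and 140 CPM, again without overlap, though replicate 1 with rapamycin lay just above the highest etoposide library. CXCL8 had a log2 fold change of 0.58 in A375 (SE 0.0526, edgeR adjusted p = 8.90e-06), a 1.49-fold change that fell just short of the 1.5-fold threshold. It was past the threshold at 0.60, 0.59, 0.62 and 0.59 without etoposide + rapamycin replicate 1 or 3 or etoposide replicate 2 or 3 in turn. In SK-MEL-28 it was 0.28 (SE 0.0818, edgeR adjusted p = 0.0292).

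CXCL1 (chr4:73869393-73871308, plus strand) was the CXCR2 ligand that differed least. With etoposide CXCL1 was in A375 at 119, 132 and 132 CPM and at 141, 145 and 147 CPM with rapamycin added. The groups did not overlap, and the log2 fold change was 0.18 (SE 0.0506, edgeR adjusted p = 0.0194), a 1.13-fold change that was not called. In SK-MEL-28 it was at 17.2, 18.3 and 18.2 CPM and then at 14.7, 19.3 and 19.7 CPM, with a log2 fold change of −0.0050 (SE 0.111, edgeR adjusted p = 0.983). The SK-MEL-28 libraries with rapamycin lay on both sides of those without it. Per kilobase it was more abundant than CXCL2 and CXCL3 in every group, at 109 ± 6.39 against 11.9 ± 1.88 and 9.69 ± 2.19 CPM per kb in A375 with etoposide (SD, n = 3).

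CCL2 (chr17:34255274-34257208, plus strand), the monocyte attractant, was the only member past the adjusted p in the lower direction, and only in SK-MEL-28. There it was at 24.7, 19.6 and 19.8 CPM with etoposide and at 14.7, 17.0 and 15.2 CPM with rapamycin added. All 3 libraries with rapamycin were below all 3 without. This was a log2 fold change of −0.45 (SE 0.108, edgeR adjusted p = 0.0109), a 1.37-fold change that was not called. A375 had 58.1, 59.0 and 59.8 CPM and then 59.6, 62.8 and 64.1 CPM, and the groups overlapped. Its log2 fold change was 0.081 (SE 0.0505, edgeR adjusted p = 0.266).

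IL1A (chr2:112773925-112784493, minus strand) encodes IL-1α, the upstream ligand of the group. In A375 its 6 libraries lay between 90.7 and 94.9 CPM, at 93.0, 94.3 and 94.7 CPM with etoposide and at 94.9, 92.9 and 90.7 CPM with rapamycin added. The groups overlapped, and the log2 fold change was −0.013 (SE 0.0445, edgeR adjusted p = 0.864). In SK-MEL-28 it was at 39.0, 43.8 and 45.2 CPM with etoposide and at 64.8, 67.5 and 62.9 CPM with rapamycin added. Every SK-MEL-28 library with rapamycin was higher, with a log2 fold change of 0.60 (SE 0.0631, edgeR adjusted p = 2.82e-05). The change was close to the 1.5-fold threshold, and it was under it at 0.58 without etoposide + rapamycin replicate 2, at 0.55 without etoposide replicate 1 and at 0.57 with library totals in place of TMM.

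IL1B (chr2:112829751-112836816, minus strand), which encodes the secreted IL-1β, was higher with rapamycin in both lines. IL1B in A375 was at 14.7, 17.6 and 16.6 CPM with etoposide and at 28.7, 28.4 and 25.3 CPM with rapamycin added. IL1B in SK-MEL-28 was at 8.50, 8.20 and 9.93 CPM and then at 12.9, 12.1 and 12.5 CPM. The groups did not overlap in either line. The log2 fold change was 0.76 in A375 (SE 0.0943, edgeR adjusted p = 0.000104), which was called, and 0.49 in SK-MEL-28 (SE 0.110, edgeR adjusted p = 0.00740), which was under 1.5-fold. The difference between the lines, −0.26 (SE 0.139), did not pass the test (edgeR adjusted p = 0.326).

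IL6 (chr7:22725884-22732002, plus strand), the cytokine most often used as a readout of the secretory phenotype, was near the lower limit of what these libraries could measure in A375. It had 24, 38 and 15 counts there with etoposide (0.787, 1.31 and 0.527 CPM) and 13, 26 and 65 counts with rapamycin added (0.455, 0.875 and 2.18 CPM). The groups overlapped, and replicate 3 with rapamycin set the direction: the log2 fold change was 0.43 (SE 0.510, edgeR adjusted p = 0.584) with it and −0.38 without it. In SK-MEL-28 it was at 3.11, 3.54 and 3.19 CPM with etoposide and at 2.61, 2.61 and 2.67 CPM with rapamycin added. These groups did not overlap, but the log2 fold change of −0.32 (SE 0.172) did not pass the test (edgeR adjusted p = 0.227). The gene span of IL6 overlaps that of STEAP1B on the other strand, which had 282 to 473 counts per library, more than IL6. Whether the counting used strand is not stated, and without strand reads of an overlapping pair cannot be told apart.

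LIF (chr22:30240453-30246759, minus strand), which signals through LIFR and gp130, was abundant and was called in neither line. LIF in A375 was at 303, 327 and 279 CPM with etoposide and at 373, 332 and 336 CPM with rapamycin added. LIF in SK-MEL-28 was at 111, 132 and 131 CPM and then at 132, 133 and 136 CPM. The groups did not overlap in either line, though in SK-MEL-28 the highest etoposide library, at 131.7 CPM, lay next to the lowest with rapamycin, at 132.1 CPM. The log2 fold change was 0.20 in A375 (SE 0.0626, edgeR adjusted p = 0.0306), and 0.10 in SK-MEL-28 (SE 0.0657, edgeR adjusted p = 0.327). LIF overlaps the antisense gene LIF-AS1, which had 0 to 5 counts per library.

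IL24 (chr1:206897443-206904139, plus strand) had the lowest adjusted p of the members in SK-MEL-28. There it was at 623, 612 and 625 CPM with etoposide and at 1041, 1129 and 1082 CPM with rapamycin added. In A375 it was at 665, 706 and 703 CPM and then at 907, 854 and 843 CPM. In both lines every library with rapamycin was above every library without it. IL24 had a log2 fold change of 0.80 in SK-MEL-28 (SE 0.0429, edgeR adjusted p = 1.23e-07), a 1.75-fold change. In A375 it was 0.33 (SE 0.0445, edgeR adjusted p = 0.000172), a 1.26-fold change that was not called. IL24 overlaps FCMR on the other strand, which had 66 to 119 counts per library against at least 18501 for IL24.

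The response to rapamycin differed between the lines for IL1A, IL24 and CCL2. The question was put as an interaction in a fit of all 12 libraries, where a positive value means a higher response in SK-MEL-28 and a call needs an adjusted p under 0.05 alone. Called were 3 of 10 members, 2 higher and 1 lower, against 5.62% of 20101 genes tested (2.66% higher and 2.97% lower). The difference in log2 fold change was 0.63 for IL1A (SE 0.0780, edgeR adjusted p = 0.000196) and 0.48 for IL24 (SE 0.0590, edgeR adjusted p = 0.000181). For CCL2 it was −0.53 (SE 0.115, edgeR adjusted p = 0.0127). IL1A and IL24 were the members with a larger response in SK-MEL-28, and CCL2 the one with a lower response there. CXCL8 (−0.29, SE 0.106) and CXCL3 (−0.35, SE 0.272) did not pass, with edgeR adjusted p = 0.128 and 0.522. CXCL1 (−0.18, SE 0.116), LIF (−0.092, SE 0.0968) and IL6 (−0.74, SE 0.556) did not pass either, with edgeR adjusted p = 0.433, 0.660 and 0.503. CXCL2 and IL1B, given above, did not pass in edgeR. DESeq2 called 2 of these 7, CXCL2 (adjusted p = 0.0422, range over alternatives 0.0422 to 0.376) and CXCL8 (adjusted p = 0.0289, range 0.0289 to 0.240). CXCL8 was also called by edgeR without SK-MEL-28 etoposide + rapamycin replicate 2 (log2 difference −0.38, adjusted p = 0.0381).

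With etoposide alone, most members were lower in the libraries labelled SK-MEL-28 than in those labelled A375. In the 12-library fit 9 of 10 members were called, 8 lower and 1 higher, against 12.5% of 20101 genes tested (7.16% lower and 5.39% higher). By the adjusted p alone all 10 passed, against 31.8% of genes (16.7% lower and 15.1% higher). The lines did not overlap for any member, against 43.3% of genes (22.4% lower and 20.9% higher). The median log2 difference was −1.37 over the members and −0.0045 over all genes tested. The 3 similar chemokines differed by nearly the same amount, −2.84 for CXCL1 (SE 0.0847), −2.78 for CXCL2 (SE 0.201) and −2.76 for CXCL3 (SE 0.197), and CXCL8 differed by −2.16 (SE 0.0782). The adjusted p from edgeR for these was 1.68e-13, 1.20e-08, 1.01e-08 and 1.81e-12. CCL2 differed by −1.47 (SE 0.0809), LIF by −1.28 (SE 0.0695), IL1A by −1.14 (SE 0.0559) and IL1B by −0.88 (SE 0.1003) on the log2 scale. Their edgeR adjusted p-values were 3.54e-10, 2.77e-10, 7.70e-11 and 3.15e-06. IL6 went the other way, 3.74-fold higher in SK-MEL-28 (log2 1.90, SE 0.398, edgeR adjusted p = 0.00132), on the low counts given above. IL24 was close between the lines, at 692 ± 22.7 CPM in A375 and 620 ± 6.98 CPM in SK-MEL-28 (SD, n = 3), and was not called (log2 −0.16, SE 0.0417, edgeR adjusted p = 0.00760).

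**Figure D4:**
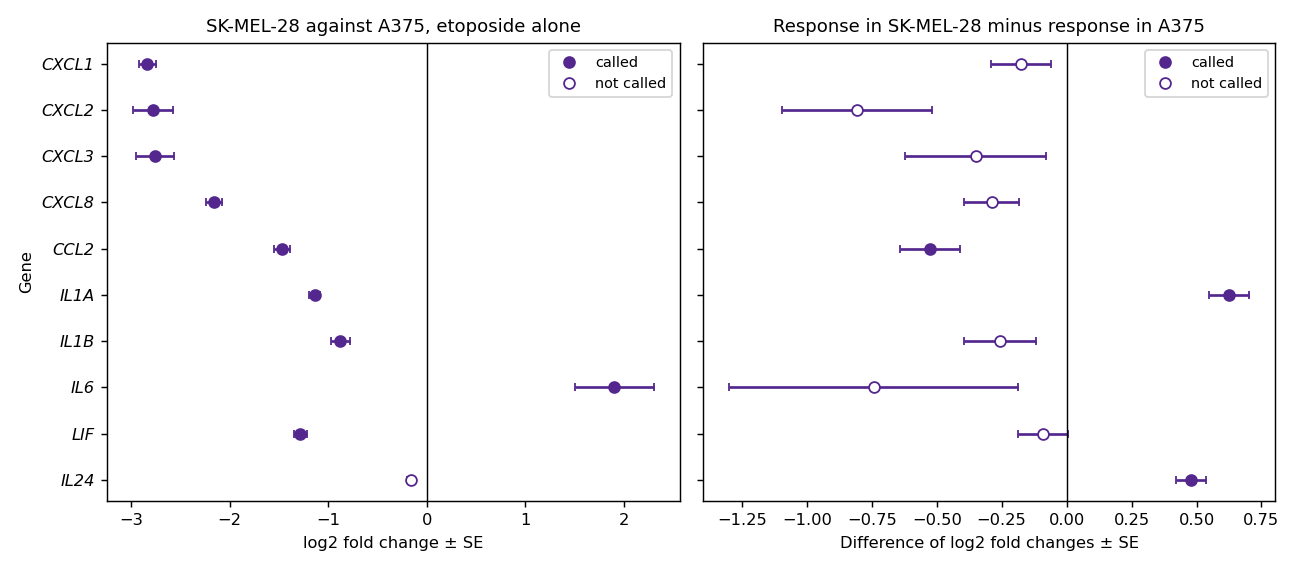
Left panel, log2 difference in level between SK-MEL-28 and A375 with etoposide for each member. Right panel, the rapamycin response in SK-MEL-28 minus that in A375, from the interaction. Points are edgeR estimates from 12 libraries, bars are 1 SE, filled points are called and the vertical line marks no difference. A call in the right panel needed the adjusted p alone. In the left panel the CXCR2 ligands lie furthest to the lower side, from −2.84 to −2.16, and IL6 is the member on the higher side.

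CXCR2 and CCR2 were near the lower limit of these libraries, and the gp130 subunit IL6ST was abundant. Of 13 receptor genes 9 were tested in each line, and with rapamycin 0 were called higher and 1 lower in A375, ACKR1 (−2.10), an atypical chemokine receptor, and 0 either way in SK-MEL-28. At an unadjusted p under 0.05 in edgeR, 4 receptors were lower and 0 higher in each line, and DESeq2 called 0. Over all genes tested, 13.8% in A375 and 10.1% in SK-MEL-28 were lower by the stricter adjusted p. CXCR2, the receptor of the 4 CXCL members, was at 1.38 ± 0.302 and 0.831 ± 0.253 CPM in A375 and at 0.832 ± 0.170 and 0.816 ± 0.0755 CPM in SK-MEL-28, without and with rapamycin (SD, n = 3). CCR2 and IL20RA, the latter a subunit of IL24 receptors, had 16 and 20 counts in all 12 libraries together and were not tested. IL6ST was at 318 ± 15.9 and 309 ± 21.0 CPM in A375 and at 254 ± 15.4 and 229 ± 11.9 CPM in SK-MEL-28. IL6R was at 20.2 ± 2.11 and 17.4 ± 1.19 CPM in A375 and at 58.4 ± 3.47 and 53.4 ± 1.79 CPM in SK-MEL-28, and neither gene was called for rapamycin.

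Among the 21 genes of the NF-κB system, its subunits, adaptors and brakes, 1 was called higher in each line and 0 lower, by edgeR and by DESeq2. At an unadjusted edgeR p under 0.05, 16 were higher and 1 lower in A375, while 12 were higher and 3 lower in SK-MEL-28. Over all genes tested, the stricter adjusted p was passed by 28.1% in A375 (14.3% higher and 13.8% lower). In SK-MEL-28 19.0% passed it (8.83% higher and 10.1% lower). The share of all genes at the unadjusted p is larger and is not given here. The unadjusted counts in this paragraph therefore have no like share beside them. Called higher were 3.09% and 1.85% of all genes, and called lower 2.8% and 3.14%. The gene called was BIRC3, an NF-κB target that encodes a ubiquitin ligase of the pathway, at a log2 fold change of 0.68 in A375 (SE 0.0610, edgeR adjusted p = 7.97e-06) and 0.60 in SK-MEL-28 (SE 0.0697, edgeR adjusted p = 6.41e-05). Over the 21 the median was 0.30 for A375 and 0.21 for SK-MEL-28 on the log2 scale. NFKB2, which encodes the p100 precursor, was at 0.56 in A375 (SE 0.0444) and 0.33 in SK-MEL-28 (SE 0.0623), under 1.5-fold in each. TRAF1 was at 0.43 in A375 (SE 0.0517, edgeR adjusted p = 8.24e-05) and −0.18 in SK-MEL-28 (SE 0.0756), under 1.5-fold in each. Its interaction was called (−0.60, edgeR adjusted p = 0.00189). The IL-1 pathway had 11 genes tested in A375 and 9 in SK-MEL-28, with 0 called higher and 1 lower in each, IL36RN (−1.63) in A375 and IL18 (−1.36) in SK-MEL-28. Its most abundant genes, IRAK1 (0.26 and −0.07) and MYD88 (0.04 and −0.12), which carry the signal from the IL-1 receptor, were called in neither line. IRAK1 passed the adjusted p in A375 (edgeR adjusted p = 0.00374), and its interaction was called (−0.32, edgeR adjusted p = 0.0166). The 10 other transcription regulators tested in A375 and the 9 in SK-MEL-28 had 0 calls by edgeR and by DESeq2 (at an unadjusted edgeR p under 0.05, 1 higher and 2 lower in A375, but 3 higher and 4 lower in SK-MEL-28), CEBPB being at 0.08 and 0.13. The 10 genes of mRNA stability also had 0 calls by both tools (unadjusted, 6 higher and 2 lower in A375, against 4 higher and 0 lower in SK-MEL-28), with KHSRP at 0.21 and 0.09 and MAPKAPK2 at 0.26 and 0.19. By the adjusted p alone, MAPKAPK2 passed in both lines (edgeR adjusted p = 0.000854 and 0.0161). Of 11 NF-κB-induced genes that are not secreted factors, 1 was called higher in A375, IRF1 (0.66), and 0 in SK-MEL-28, where DESeq2 called 0 and 4 were higher at an unadjusted p under 0.05. SOD2, the mitochondrial superoxide dismutase, was at −0.10 and −0.14 and IER3 at −0.01 and −0.11, not called.

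Other secreted factors of the senescence-associated phenotype moved in both directions with rapamycin. In A375, 7 of 47 tested were called higher and 5 lower (median log2 value 0.047), against 3.09% and 2.8% of all genes tested. In SK-MEL-28, 5 of 45 were called higher and 9 lower (median −0.12), against 1.85% and 3.14% of all genes tested. Called higher in both lines were CSF2 (0.90 in A375 and 0.76 in SK-MEL-28), INHBA (1.00 and 1.13), BMP2 (0.89 and 0.92), AREG (1.20 and 0.78) and MMP9 (1.78 and 0.66), which encode GM-CSF, a subunit of activin, a bone morphogenetic protein, amphiregulin and a gelatinase. Called lower in both lines were CXCL10 (−1.16 and −1.60), GDF15 (−0.90 and −0.60) and SPP1 (−1.55 and −0.92). CXCL10 is a chemokine of the interferon response that binds CXCR3. It was at 1.58 ± 0.193 CPM with etoposide and 0.700 ± 0.277 CPM with rapamycin added in A375 (SD, n = 3). In SK-MEL-28 it was at 0.517 ± 0.177 and 0.169 ± 0.0426 CPM, near the lower limit of these libraries (edgeR adjusted p = 0.0440). The most abundant genes of the list were SERPINE2 (−0.80 and −0.40), called lower in A375 as was IGFBP5 (−1.16), and IGFBP3 (0.25 and −0.04), called in neither. These lists were put together with earlier results of the data known, and the counts are descriptions.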

How the data were processed

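PolyA-enriched RNA of 12 libraries was sequenced. The authors aligned reads to the human genome (hg38) with HISAT2, estimated expression with StringTie, and deposited a matrix of raw counts, not normalised, with 1 column for each library. The step from StringTie coverage to counts is not described. Of 58312 rows, 5 named no gene (at most 0.00529% of a library's counts) and were left out.

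Genes were tested with edgeR 4.0.16 in R 4.3.3 (filterByExpr with a minimum count of 10, TMM, glmQLFit and glmQLFTest), adjusted by Benjamini-Hochberg over every gene that was tested. The rapamycin response was fitted on the 6 libraries of each line, the interaction and the comparison of lines on all 12. Calls needed an adjusted p under 0.05 and, except for the interaction, a fold change over 1.5. SE was taken as the absolute log2 fold change over the square root of F. Levels per kilobase used the MANE Select transcript length. Scripts were tested on simulated data. The members and lists were chosen with earlier results of these data known. Named were the members, list genes called alike in both lines, the 2 most abundant genes of each list and the 5 genes most like the members. The values of 1 of these are not reported. ACKR1, CCR2, CXCR2, IGFBP5, IL18, IL20RA, IL36RN, IRF1, LMNB1, MKI67, CDKN2B, GLB1, RB1 and the cell markers were chosen after their values were seen. Alternatives were DESeq2 1.42.0, RLE factors, library totals, 2 filters, a replicate block, summed rows of one symbol, other thresholds, another set of libraries in the fit and each library left out.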

Additional observations from a re-analysis of the deposited data

Results flagged for a closer look

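The response to rapamycin of IL1A, CCL2 and IL24 is listed because it differed between the lines by a direct test, the interaction term of edgeR's quasi-likelihood fit of 12 libraries with Benjamini-Hochberg adjustment over 20101 genes. IL1A differed by 0.63 on the log2 scale, with no difference between the groups past the test in A375 (90.7 to 94.9 CPM over its 6 libraries) and a rise in SK-MEL-28 from 42.7 ± 3.21 to 65.0 ± 2.31 CPM (SD, n = 3). Over the alternatives the IL1A difference lay between 0.57 and 0.67 and its adjusted p between 1.22e-11 and 0.00237. IL24 differed by 0.48, its level being higher with rapamycin in 6 of 6 libraries over the 2 lines, and its difference lay between 0.45 and 0.51 with an adjusted p of at most 0.00377. CCL2 differed by −0.53, between −0.59 and −0.41 over the alternatives, with an adjusted p of at most 0.0429. Of the 3, IL1A had a difference of over 1.5-fold. Groups of 3 libraries were not tested for single libraries that stand apart.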

How the results depend on the processing

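Over all alternatives, 622 of 650 values of single members kept their side of the threshold, 15 moved past it and 13 fell short of it. Of the 622, 614 kept their direction and 8 changed sign, all of them uncalled values (CXCL1 and CXCL2 in SK-MEL-28, IL1A and IL6 in A375, and IL6 in the interaction). The cause of these changes was not tested, except that dropping the fold threshold lets smaller changes count. Without a fold threshold 7 members were called in A375 and 6 in SK-MEL-28 (5295 and 3582 of all genes in place of 1109 and 943, and 6392 in place of 2522 between the lines). For the interaction DESeq2 called 5 members, adding CXCL2 and CXCL8, and a fold change over 1.5 left 1, IL1A. Leaving out each library in turn gave 2 to 4 members in A375, 1 to 3 in SK-MEL-28 (1 without etoposide + rapamycin replicate 2 or etoposide replicate 1), 3 to 4 for the interaction and 9 between the lines. CXCL3 in SK-MEL-28 also missed the threshold with DESeq2 (adjusted p = 0.0554) and with a filter of 1 count (0.0915), in its range of 0.0149 to 0.161. With library totals in place of TMM, the calls in A375 were 41.5% higher in place of 52.5%, and the members called stayed 3. Whether replicate numbers pair the libraries is not stated. Deviations of same-numbered libraries from their group means correlated at −0.0298 to 0.0209, which cannot exclude pairing. With the replicate number as a block 3, 3, 3 and 9 members were called in A375, SK-MEL-28, the interaction and between the lines, as without it, and 620 in place of 1130 genes for the interaction. That count was 1738 with DESeq2, 658 with a filter of 1 count, 326 with a fold change over 1.5 and at least 594 with 1 library left out. Depth limits IL6 in A375 (13 to 65 counts) and CXCL2 and CXCL3 in SK-MEL-28 (41 to 99 counts).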

Other observations

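Genes used as marks of senescence were measured in the same libraries. CDKN1A, which encodes the cell cycle inhibitor p21, was at 1643 ± 57.5 and 1302 ± 20.4 CPM in A375 without and with rapamycin, and at 1975 ± 73.3 and 1551 ± 20.7 CPM in SK-MEL-28 (SD, n = 3), with log2 fold changes of −0.33 and −0.35 that were not called. HMGB2, a chromatin protein that is lost in senescence, was called higher with rapamycin in both lines, by 0.81 in A375 and 0.68 in SK-MEL-28. LMNB1, which encodes lamin B1, and MKI67, the proliferation antigen, were called higher in A375 (0.80 and 1.08). In SK-MEL-28 LMNB1 was at 0.39, past the adjusted p but under 1.5-fold (edgeR adjusted p = 0.00842). MKI67 was at 0.01 there (edgeR adjusted p = 0.917). The interaction was called for MKI67 (−1.06, edgeR adjusted p = 7.89e-06) and not for LMNB1 (−0.40, edgeR adjusted p = 0.0877). Of the 9 marks tested, 3 were called higher in A375 (HMGB2, LMNB1 and MKI67) and 1 in SK-MEL-28 (HMGB2), and 0 lower. The list holds HMGB2, which is lost in senescence, beside the cell cycle inhibitor CDKN1A, so the counts give no direction of senescence. Over all genes tested, 3.09% and 1.85% were called higher. At an unadjusted edgeR p under 0.05, 5 marks were higher and 3 lower in A375, and 5 higher and 2 lower in SK-MEL-28. By the adjusted p alone, CDKN1A was lower in both lines (edgeR adjusted p = 9.04e-05 and 3.84e-05). So was GLB1 (−0.36 and −0.27, edgeR adjusted p = 0.000181 and 0.00286), and RB1 in A375 (−0.34, edgeR adjusted p = 0.000810). CDKN2B was at 0 CPM in all 12 libraries.

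Across the 12 libraries, with log2 CPM centred within each line, the members most like the mean of the other members were CXCL8 (Pearson r = 0.893), CXCL3 (0.860) and IL1B (0.842). IL6 (0.017) and CCL2 (−0.31) were the least like it. These are descriptions, since all members share the libraries and the difference between treatments. The 5 genes most like the mean of the members on the same scale were C1orf174 (0.974), GLYCTK (0.966), DRAP1 (0.964), NUBP2 (0.962) and LSM4 (0.961). None of these was called in either line at the 1.5-fold threshold, their log2 fold changes being 0.39 to 0.51 in A375 and 0.14 to 0.29 in SK-MEL-28.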
